A study of Mus musculus with 12 samples.

Results

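The microRNAs described here are miR-150, miR-342-3p, miR-181a and miR-181c, measured by quantitative PCR in mouse lung. They are the 4 assays, of 762 in the series, whose name is miR-150 or miR-342-3p or begins with miR-181, with assays of the opposite arm (marked #) left out. Each of the 4 gave a threshold cycle in all 12 mice. Lungs came from C57BL/6 mice in 4 groups of 3. The first 3 mice (numbers 15, 17 and 18) received 13.5 Gy of radiation on a diet with 10% flaxseed, eaten over 21 days. Mice 11, 12 and 13 ate the flaxseed diet without radiation, mice 7, 8 and 9 ate control diet and received 13.5 Gy, and mice 2, 4 and 5 ate control diet without radiation. Lungs were taken 48 h after radiation, and the labels give neither age nor sex of the mice. RNA was taken from pieces of whole lung, with no sorting of cells.

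MicroRNAs are short RNAs that bind messenger RNAs through bases 2 to 8 of their sequence, the seed, and lower the output of their targets. miR-150 is abundant in mature B and T cells and restrains the transcription factor Myb. miR-342-3p is also abundant in lymphocytes, and its hairpin lies within the Evl gene. The miR-181 family is high in developing thymocytes, where miR-181a tunes the strength of T cell receptor signalling, but it is also made in many other tissues. Lymphocytes are among the cells most sensitive to ionizing radiation, and lung holds both circulating and resident lymphocytes.

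The mature sequences of 3 members and of the opposite arm of the miR-181a-1 hairpin are shown to tell apart what each assay was named for. They are RefSeq entries on build GRCm38.p6, written 5′ to 3′ with the seed in capitals.
miR-342-3p: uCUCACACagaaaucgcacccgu
miR-181a: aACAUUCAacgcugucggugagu
miR-181c: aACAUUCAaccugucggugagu
miR-181a-1-3p: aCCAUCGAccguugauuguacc
miR-342-3p lies at chr12:108658680-108658702 on the plus strand, inside the annotated span of the protein-coding gene Evl. miR-181a is made from 2 loci on the plus strand with the same mature sequence. The first is at chr1:137966468-137966490, where no other gene spans it, and the other at chr2:38852741-38852763, within the spans of the protein-coding gene Nr6a1 and the long noncoding RNA Nr6a1os. miR-181c lies at chr8:84178924-84178945 on the minus strand, with no other gene spanning it. miR-181a and miR-181c share the first 10 bases and differ by a single inserted or missing base. Their seed ACAUUCA occurs in 4 of 1679 mature mouse microRNA names in the table, all of the miR-181 family, whereas the seed of miR-342-3p occurs in 1. The sources used here do not say how far the miR-181a and miR-181c assays detect each other's target.

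A level is the threshold cycle of an assay, with its sign turned, relative to the mean of the 260 microRNA assays detected in every mouse, so that a rise of 1 means a doubling of template under ideal PCR. Detected microRNA assays (threshold cycle below 28) numbered 281 to 312 per mouse, with the fewest in mouse 13. Mouse 11 lay at least 2 below every other mouse in 11 of 260 assays. In irradiated flaxseed and unirradiated control mice, 40% to 49.7% of the values carried a 4th decimal, and in the other 6 mice none did. This split coincides with the interaction of diet and radiation. In each comparison of 2 groups that changes 1 factor, 1 group carries such values and the other none. The split then cannot be told apart from that factor. It is balanced when 1 factor is averaged over the other. All 4 members are in primer pool A. Of 10 epithelial microRNA assays tested, only miR-205 was undetected in any mouse, with a value in 11 of 12. No other tissue was measured, so this cannot tell lung from another tissue with epithelium. Nothing in the labels ties the mice to litters or batches.

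miR-150 was lower in flaxseed lungs. Its level was 3.64, 3.38 and 3.47 in irradiated flaxseed mice, 4.63, 4.08 and 4.17 in unirradiated flaxseed mice, 5.24, 5.34 and 5.03 in irradiated control mice, and 4.60, 5.85 and 5.31 in unirradiated control mice. Of the 6 flaxseed mice, only mouse 11 stood above any control mouse, the lowest one, mouse 2. The group means were 3.50 ± 0.13 in irradiated flaxseed mice, 4.29 ± 0.30 in unirradiated flaxseed mice, 5.20 ± 0.16 in irradiated control mice and 5.25 ± 0.62 in unirradiated control mice (SD, n = 3 each). Averaged over both radiation states, flaxseed against control diet gave -1.33 ± 0.21 (SE, 95% interval -1.79 to -0.88), or 2.52-fold lower, with a limma adjusted p of 0.0059 over 296 assays. By p value it ranked at place 3 of these 296. The 4 group means lay in the order irradiated flaxseed, unirradiated flaxseed, irradiated control, unirradiated control, and of the 3 neighbouring pairs none passed (limma adjusted p = 0.0873, 0.0666 and 0.993 in that order).

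**Figure D1:**
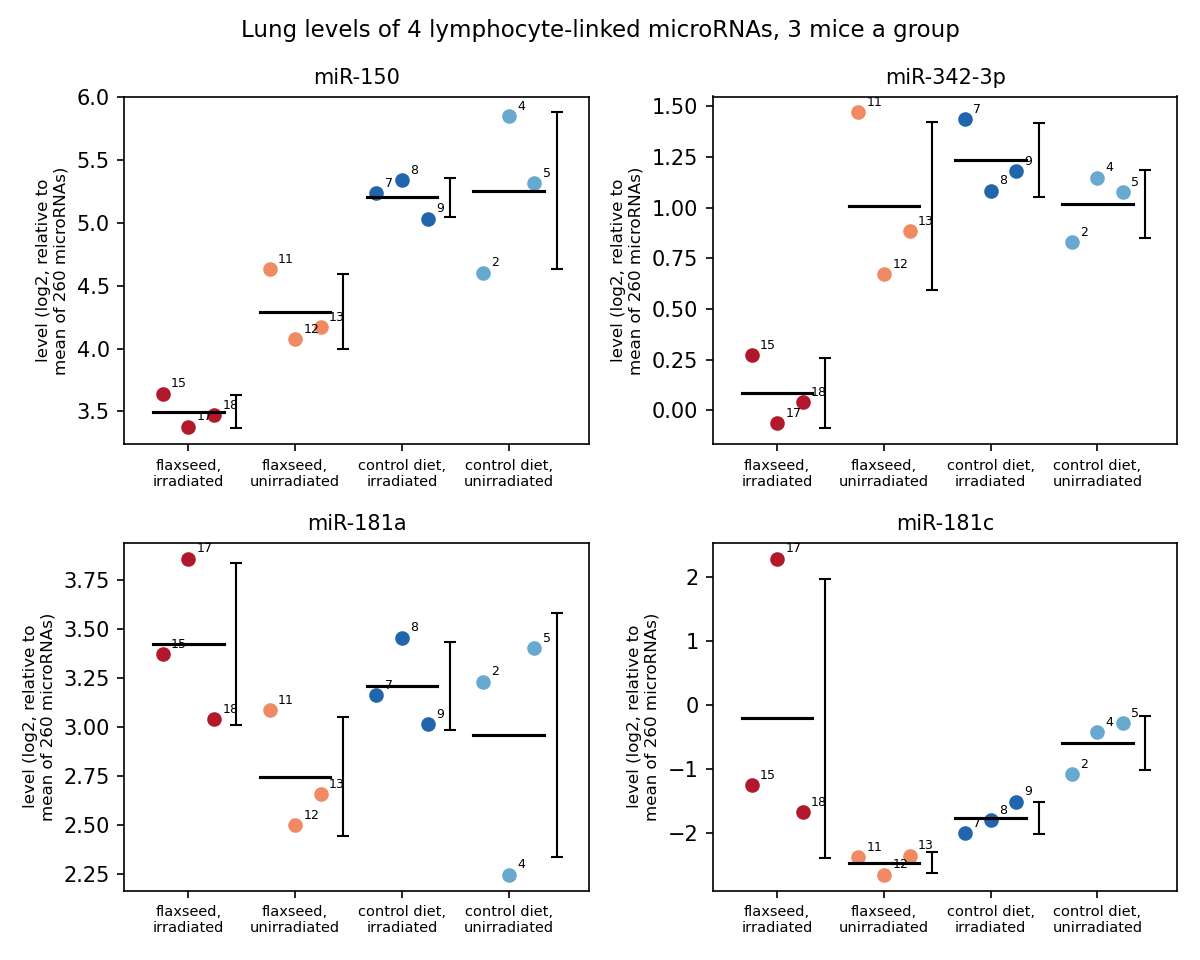
Levels of the 4 members by mouse (points, with the mouse's number), on the log2 scale relative to the mean of 260 microRNAs, in 4 groups of 3 mice; the bar is the group mean and the whisker 1 SD. miR-150 and miR-342-3p lie lowest in irradiated flaxseed mice, and mouse 17 stands at 2.29 for miR-181c, above all 11 other mice.

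The diet difference of miR-150 was called in irradiated mice and not in unirradiated mice, and the test between both states did not pass. In irradiated mice flaxseed against control diet gave -1.70 ± 0.29 (SE), or 3.26-fold lower (limma adjusted p = 0.0102), and the groups did not overlap, as in 22.6% of assays in that direction. In unirradiated mice it gave -0.96 ± 0.29 (95% interval -1.61 to -0.31, limma adjusted p = 0.0565), and the groups overlapped through mice 11 and 2. The interaction was -0.74 ± 0.41 (limma adjusted p = 0.238), where 8.45% of assays were called. The irradiated call was lost without mouse 7 or mouse 8 (adjusted p up to 0.0643). The unirradiated difference passed without mouse 2 or mouse 11, at -1.29 and -1.13.

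Within the sets of mice that share the number of decimals, miR-150 was lower in the flaxseed mice of both. In each set radiation changes together with diet. Irradiated flaxseed against unirradiated control mice gave -1.76 ± 0.29 (SE), or 3.38-fold lower (limma adjusted p = 0.0321), with no overlap between groups, as in 12.5% of assays in that direction. It was the single assay of 296 called in that comparison, 0.338%. Unirradiated flaxseed against irradiated control mice gave -0.91 ± 0.29 (limma adjusted p = 0.0666), also without overlap, as in 14.5% of assays, while 13.9% were called there in either direction. The first of these calls was lost in 9 of the 12 fits that left out a mouse, the exceptions being mice 2, 4 and 11 (adjusted p up to 0.183).

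miR-342-3p was lower in irradiated flaxseed mice. Its level was 0.27, -0.064 and 0.039 in irradiated flaxseed mice, 1.47, 0.67 and 0.88 in unirradiated flaxseed mice, 1.44, 1.08 and 1.18 in irradiated control mice, and 0.83, 1.15 and 1.08 in unirradiated control mice. The 3 irradiated flaxseed mice lay below all 9 others, which overlapped among themselves. Groups that did not overlap in the lower direction were seen in 22.6% of assays for flaxseed in irradiated mice and in 29.1% for radiation on flaxseed diet. In irradiated mice flaxseed against control diet gave -1.15 ± 0.23 (SE), or 2.22-fold lower (limma adjusted p = 0.021). In unirradiated mice the difference was -0.0093 ± 0.23 (95% interval -0.52 to 0.50, limma adjusted p = 0.978). The interaction of -1.14 ± 0.32 had a limma adjusted p of 0.0557 and was not called. Without mouse 7, 8, 9, 17 or 18 the irradiated call was lost (adjusted p up to 0.0781). The split in decimals also separates irradiated flaxseed from irradiated control mice.

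Averaged over radiation states, miR-342-3p was at -0.58 ± 0.16 (SE), 1.49-fold lower, with a limma adjusted p of 0.0468. The call was lost in 10 of 12 fits that left out 1 mouse, those other than mice 2 and 11, with adjusted p up to 0.115 and values of -0.69 to -0.50. Within the sets that share the number of decimals, diet and radiation change together. There, irradiated flaxseed against unirradiated control mice gave -0.93 ± 0.23 (limma adjusted p = 0.102). Unirradiated flaxseed against irradiated control mice gave -0.22 ± 0.23 (limma adjusted p = 0.591). The 4 group means were 0.083 ± 0.17, 1.01 ± 0.41, 1.23 ± 0.18 and 1.02 ± 0.17 (SD, n = 3 each) for irradiated flaxseed, unirradiated flaxseed, irradiated control and unirradiated control mice.

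**Figure D2:**
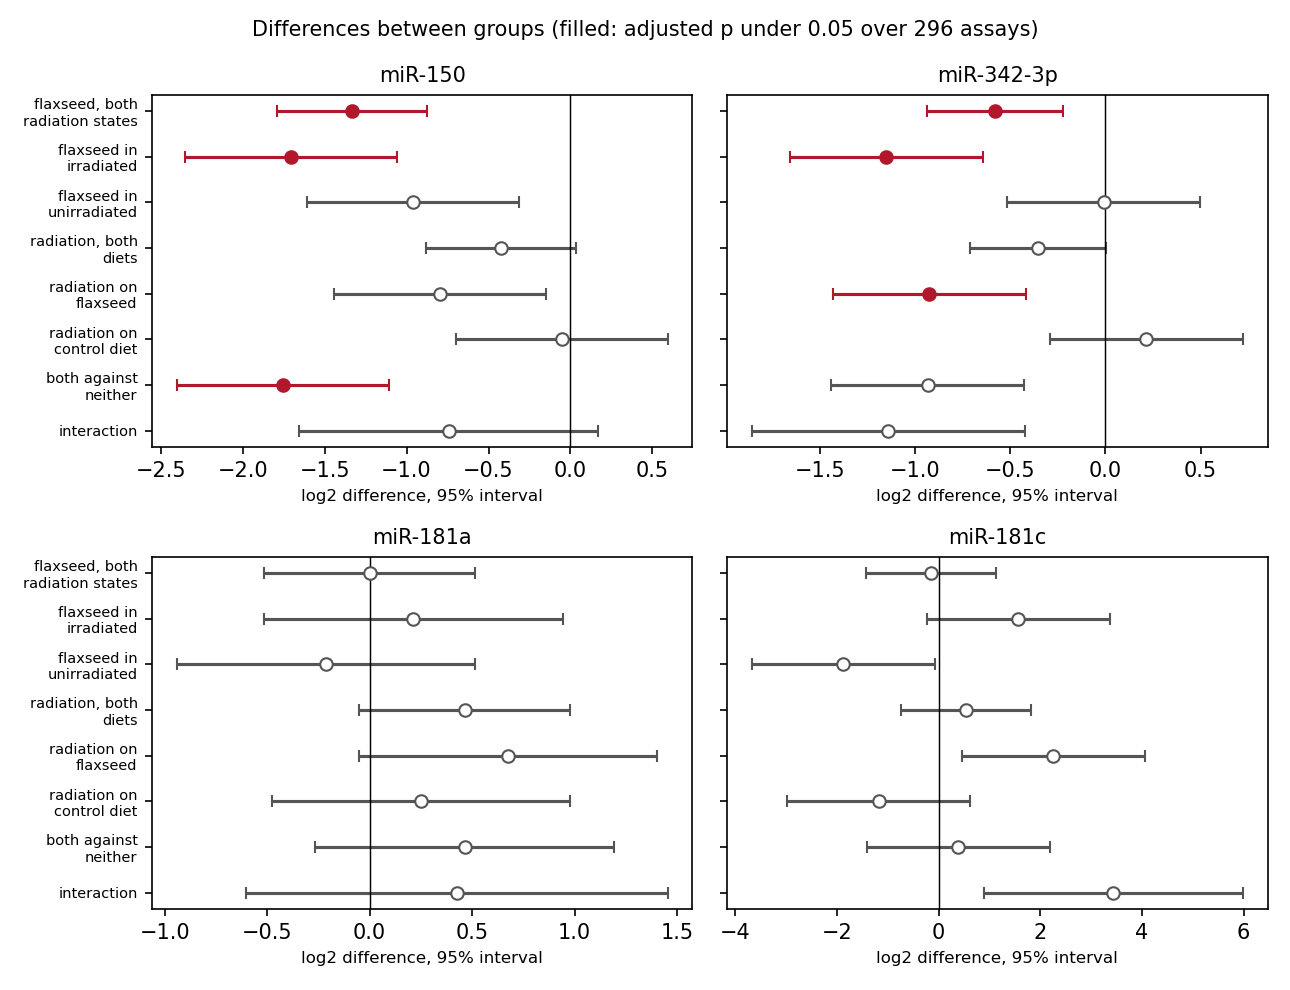
Differences between groups for the 4 members in 8 comparisons, on the log2 scale with 95% intervals from the limma fit of all 12 mice; filled red points passed an adjusted p under 0.05 over 296 assays. miR-150 passed in 3 comparisons and miR-342-3p in 3, and neither miR-181 assay passed in any.

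miR-181a did not follow miR-150. Its level was 3.37, 3.86 and 3.04 in irradiated flaxseed mice, 3.08, 2.50 and 2.66 in unirradiated flaxseed mice, 3.16, 3.46 and 3.01 in irradiated control mice, and 3.23, 2.25 and 3.40 in unirradiated control mice. All 4 groups overlapped. Flaxseed against control diet, averaged over radiation states, gave 0.00018 ± 0.23 (SE, limma adjusted p = 0.999), with a 95% interval of -0.51 to 0.52, and the sign turned with the scaling. In irradiated mice the difference was 0.21 ± 0.33 and in unirradiated mice -0.21 ± 0.33 (limma adjusted p = 0.742 and 0.678). Their 95% intervals were -0.52 to 0.94 in irradiated and -0.94 to 0.52 in unirradiated mice.

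miR-181c was dominated by mouse 17. Its level was -1.25, 2.29 and -1.67 in irradiated flaxseed mice 15, 17 and 18, -2.39, -2.66 and -2.36 in unirradiated flaxseed mice, -2.01, -1.81 and -1.51 in irradiated control mice, and -1.09, -0.42 and -0.28 in unirradiated control mice. Mouse 17 exceeded the next highest mouse by 2.58, and this was its only assay of 260 that stood at least 2 above every other mouse. Its deposited threshold cycle for miR-181c was 17.1, against 20.1 to 23.6 in the other 11 mice. Among the other 11 mice, the 3 unirradiated flaxseed mice were lowest and the 3 unirradiated control mice highest, with no overlap. In unirradiated mice 11.5% of assays had flaxseed mice below control mice without overlap. The share of assays with the whole order was not computed.

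With all 12 mice, no comparison of miR-181c passed. Flaxseed against control diet was at 1.56 ± 0.81 in irradiated mice (SE, limma adjusted p = 0.304) and at -1.87 ± 0.81 in unirradiated mice (limma adjusted p = 0.16). The interaction was 3.44 ± 1.15 (limma adjusted p = 0.0788). Without mouse 17 the unirradiated difference, which does not involve that mouse, had the same value with an SE of 0.26 and an adjusted p of 0.00411, or 3.66-fold lower in unirradiated flaxseed mice. The irradiated difference then became 0.31 ± 0.29 (limma adjusted p = 0.701), the average over radiation states -0.78 ± 0.19 (adjusted p = 0.0419) and the interaction 2.18 ± 0.39 (adjusted p = 0.0392). In that fit 33 of 296 assays, 11.1%, were called for flaxseed in unirradiated mice, 6.76% for the average and 0.676% for the interaction. Neither an interaction nor a difference between 2 groups that changes 1 factor can be told apart here from the split in decimals.

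Counted together, 2 of the 4 members fell with flaxseed averaged over radiation states, where 10.5% of the 296 assays were called, 4.39% lower and 6.08% higher. Of the calls 58.1% were higher, and this share was 14.3% with scaling to control RNAs and 71% with scaling to the median assay. In irradiated mice the same 2 members fell, against 2.7% of assays called lower. In unirradiated mice 0 of 4 were called, against 12.2% of assays in either direction, and miR-181c alone had groups that did not overlap, as 11.5% of assays did in that direction. The median difference of the 4 members was -0.37 averaged over radiation states, -0.47 in irradiated and -0.59 in unirradiated mice, against medians over all assays of 0.047, 0.011 and 0.22. In bulk lung RNA, fewer cells of a type and less of the RNA per cell cannot be told apart.

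**Figure D3:**
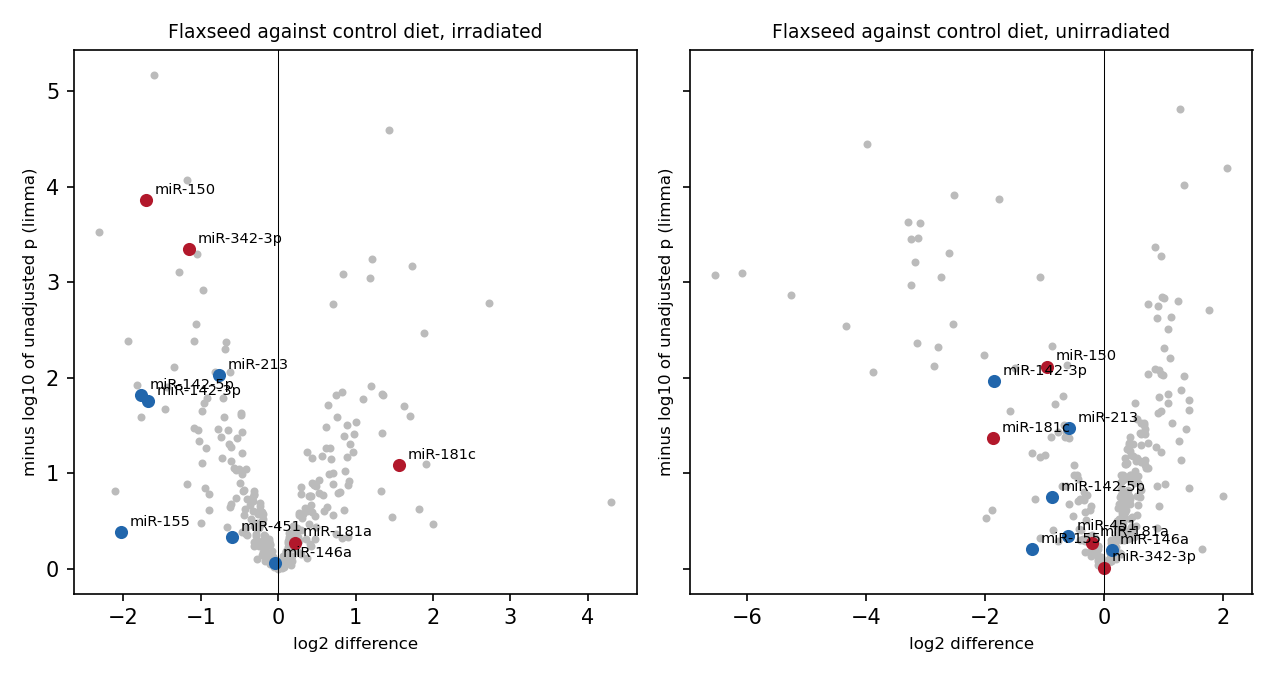
All 296 tested assays (grey) in irradiated (left) and unirradiated (right) mice, with the log2 difference of flaxseed against control diet on the x axis and minus log10 of the unadjusted limma p on the y axis. The members are red and the other named microRNAs blue; miR-150 and miR-342-3p lie at -1.70 and -1.15 on the left, and at -0.96 and -0.0093 on the right.

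Differences between members in the same mouse need no scaling, since the mouse's mean cancels. The threshold cycles of miR-150 and miR-342-3p, with the sign turned, differed by 3.37, 3.44 and 3.43 in irradiated flaxseed mice, 3.16, 3.41 and 3.29 in unirradiated flaxseed mice, 3.80, 4.26 and 3.85 in irradiated control mice, and 3.78, 4.70 and 4.24 in unirradiated control mice. All 6 flaxseed mice were below all 6 control mice. The mean was 3.35 ± 0.11 in flaxseed mice and 4.10 ± 0.36 in control mice (SD, n = 6 each), a difference of -0.75. An exact two-sided permutation test gave p = 0.00216, the smallest that 6 against 6 allows, or 0.0108 after adjustment over the 5 pairs of members compared. The ratio of miR-150 to miR-342-3p was thus lower in 6 of 6 flaxseed mice than in every control mouse. It stayed past the threshold in each test without 1 mouse (-0.82 to -0.63). The share of other assay pairs that separate the diets in this way was not computed. The members were chosen with earlier results of these data known.

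Averaged over radiation states, miR-150 relative to miR-181a was likewise lower with flaxseed. The difference of both assays was 0.27, -0.48 and 0.43 in irradiated flaxseed mice, 1.55, 1.58 and 1.51 in unirradiated flaxseed mice, 2.07, 1.88 and 2.02 in irradiated control mice, and 1.37, 3.60 and 1.91 in unirradiated control mice. Only mouse 2 among control mice reached into the range of the flaxseed mice. All unirradiated flaxseed mice, however, lay within the range of the unirradiated control mice (1.37 to 3.60). The means differed by -1.33, with an exact permutation p of 0.00866 and 0.0216 after adjustment over 5 pairs. Leaving out mouse 4, 5, 7, 8 or 9 raised the adjusted p above 0.05, up to 0.0649 in the exact test. The other 3 pairs were miR-150 against miR-181c (-1.18), miR-342-3p against miR-181a (-0.58) and miR-342-3p against miR-181c (-0.43), with adjusted exact permutation p of 0.306, 0.306 and 0.786.

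**Figure D4:**
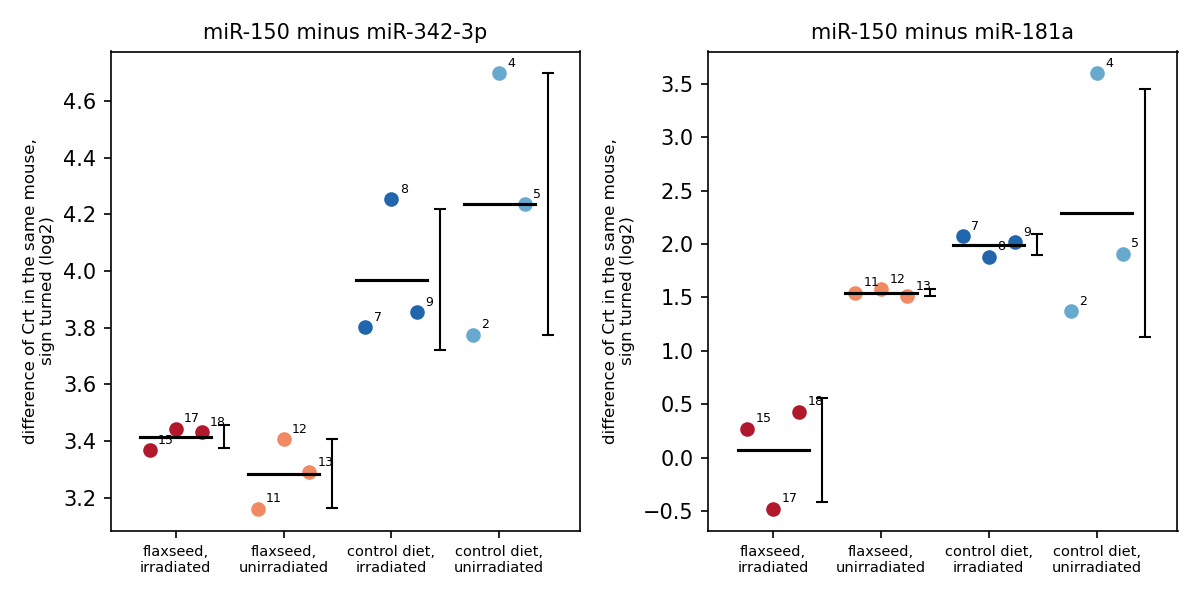
Difference of threshold cycles between a pair of assays in the same mouse, sign turned, on the log2 scale by group; points are mice, the bar the group mean and the whisker 1 SD. miR-150 minus miR-342-3p (left) lies between 3.16 and 3.44 in the 6 flaxseed mice and between 3.78 and 4.70 in the 6 control mice.

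miR-342-3p was lower in irradiated than in unirradiated flaxseed mice, a difference that cannot be told apart from the split in decimals. Irradiated against unirradiated flaxseed mice gave -0.92 ± 0.23 for miR-342-3p (SE, 1.90-fold lower, limma adjusted p = 0.0247), where 14.5% of assays were called, 6.08% lower. Markers of other cells called in the same comparison were the 1 endothelial assay (miR-126#, 1.93) and 1 of 3 fibroblast assays (miR-214 by assay 002306A, -1.03). Of 10 epithelial assays, 1 was called higher (miR-429, 2.66) and 2 lower (miR-200b by assay 002251A, -0.65, and miR-375, -0.87). For miR-429, mouse 11 was at -0.93, against 1.95 and 1.68 in the other unirradiated flaxseed mice. The median of the 10 epithelial assays was -0.27, against -0.25 over all assays. None of 3 smooth muscle and 4 striated muscle assays was called. The part of these cell types in the difference of miR-342-3p was not tested. The call was lost without mouse 11, 15, 17 or 18 (adjusted p up to 0.0976), and without any scaling the value was -0.055. The same comparison was at -0.80 ± 0.29 for miR-150, 0.68 ± 0.33 for miR-181a and 2.26 ± 0.81 for miR-181c, none called (limma adjusted p = 0.0873, 0.18 and 0.085), miR-150 passed without mouse 2 or mouse 4 (adjusted p = 0.037 and 0.0469), and miR-181c was at 1.00 without mouse 17. On control diet, irradiated against unirradiated mice gave -0.051 ± 0.29 for miR-150, 0.22 ± 0.23 for miR-342-3p, 0.25 ± 0.33 for miR-181a and -1.18 ± 0.81 for miR-181c. None of these passed (limma adjusted p = 0.83 to 0.993), and 0% of the 296 assays did, while 30, or 10.1%, had an unadjusted p under 0.05. The 95% interval for miR-150 there was -0.70 to 0.59. Averaged over diets, radiation gave -0.42 for miR-150, -0.35 for miR-342-3p, 0.46 for miR-181a and 0.54 for miR-181c, with 0% of assays called and 50, or 16.9%, at an unadjusted p under 0.05 by limma.

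Of the opposite arms of the same hairpins, the assays miR-150#, miR-342-5p and miR-181A-2# gave no threshold cycle in any mouse. miR-213 was detected in all 12. It was taken here as the earlier name of the opposite arm of miR-181a-1 (sequence miR-181a-1-3p above), a pairing that the files do not state. Its level was -1.43, -1.94 and -1.31 in irradiated flaxseed mice, -1.37, -1.66 and -1.90 in unirradiated flaxseed mice, -0.77, -0.83 and -0.80 in irradiated control mice, and -1.39, -0.69 and -1.09 in unirradiated control mice. Among control mice only mouse 2 reached the range of the flaxseed mice. Averaged over radiation states, miR-213 fell by 0.68 on the log2 scale (SE 0.17, limma adjusted p = 0.0377), while miR-181a was at 0.00018. That call was lost in 9 of 12 fits without 1 mouse, the exceptions being mice 2, 11 and 13 (adjusted p up to 0.0805). The difference between both assays was not tested, and miR-213 is in primer pool B.

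**Figure D5:**
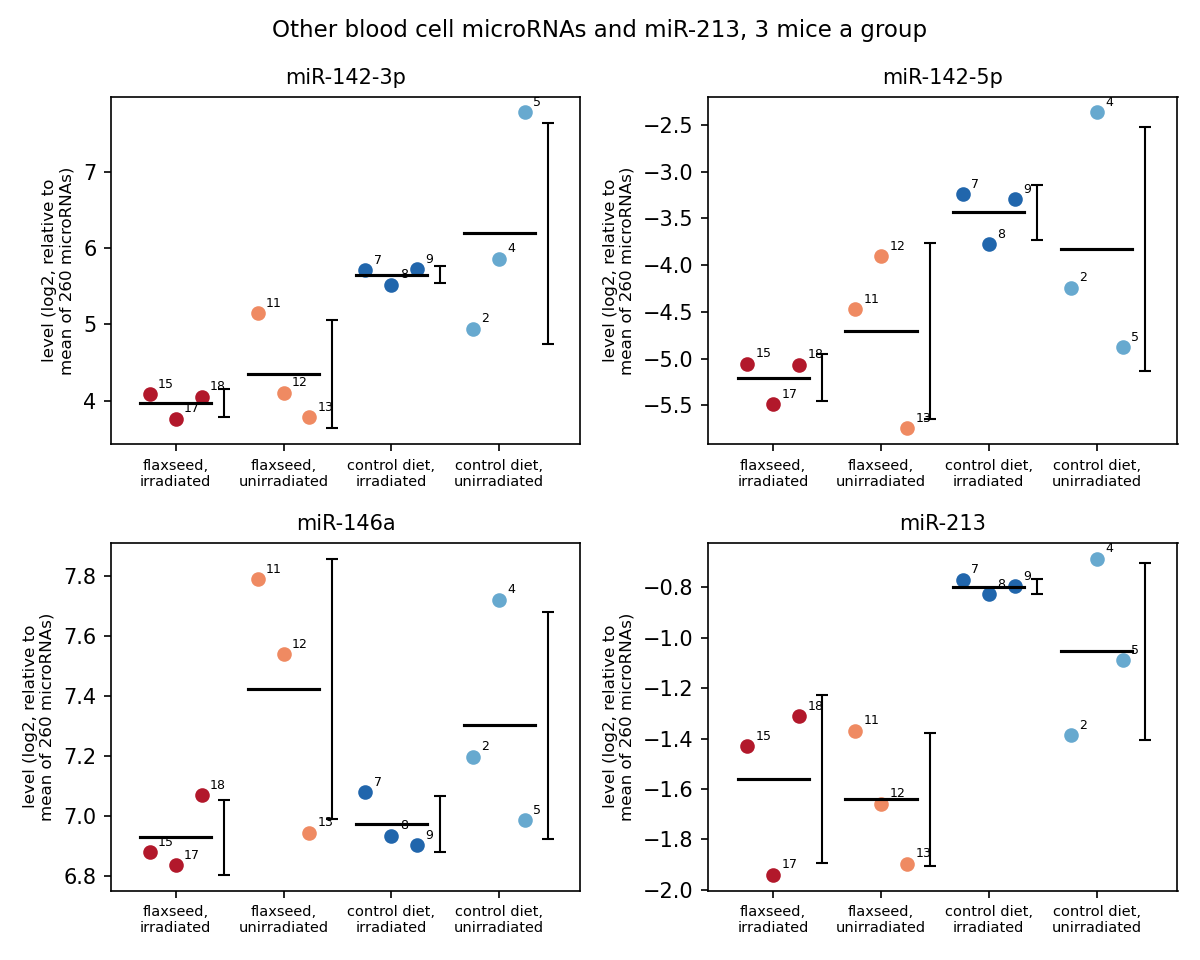
Levels of miR-142-3p, miR-142-5p, miR-146a and miR-213 by mouse (points, with the mouse's number), on the log2 scale relative to the mean of 260 microRNAs; the bar is the group mean and the whisker 1 SD. miR-142-3p lies between 3.76 and 5.14 in flaxseed mice and between 4.94 and 7.78 in control mice.

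Other blood cell microRNAs were compared for flaxseed against control diet averaged over radiation states. Of 2 assays for miR-142, which all blood-forming cells make, miR-142-3p fell by 1.77 on the log2 scale (SE 0.42, limma adjusted p = 0.0364), with 3.76 to 5.14 in flaxseed mice and 4.94 to 7.78 in control mice. Its call was lost without mouse 4, 7, 8, 9, 12, 15, 17 or 18. miR-142-5p, the other arm, had a difference of -1.32 ± 0.43, which was not called (limma adjusted p = 0.0827). Of 4 assays for microRNAs raised in activated lymphocytes, 0 were called. Among them miR-146a, a brake on NF-kB signalling, was at 0.040 ± 0.18, and its sign turned with the scaling. miR-155 spanned -1.75 to 9.33 in flaxseed mice and -0.015 to 7.07 in control mice, and its difference of -1.62 had an SE of 1.67. For the myeloid miR-223, 0 of 2 assays were called (0.75 and 0.47), and the red cell miR-451 was at -0.60 ± 0.55, with miR-144 undetected. In irradiated mice none of these assays was called. There both miR-223 assays lay above control mice without overlap (1.34 and 0.47), as in 15.2% of assays. miR-142-3p (-1.68), miR-142-5p (-1.77), miR-155 (-2.03) and miR-146b by assay 002755B (-0.67) lay below without overlap, as in 22.6%. miR-146b by assay 001097A (0.089), miR-146a (-0.044) and miR-451 (-0.59) overlapped.

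Markers of other cell types were read beside these values. Averaged over radiation states, 6.08% of all assays were called higher. Of 10 epithelial assays 2 rose (miR-375, 0.62, and 1 of 2 assays of miR-200c, 0.69, with the other at -0.15). Of 4 striated muscle assays 1 was called higher (miR-1 by assay 002222A, 0.92). The other miR-1 assay, 002064A, was at 1.08, miR-133b at 0.44 and miR-133a at -0.098, none called. The median of the striated muscle assays was 0.68, against 0.047 over all assays. None of 1 endothelial, 3 smooth muscle and 3 fibroblast assays was called in that average. In irradiated mice, where 2.36% of assays were called higher, miR-200c by assay 000505B (1.19) and miR-1 by assay 002222A (1.73) rose with flaxseed. The other miR-200c assay, 002300A, was at -0.24 there, and the miR-200b assays were at -0.31 and -0.48, none of them called. The medians there were 0.038 for the 10 epithelial and 0.81 for the 4 striated muscle assays, against 0.011 over all assays. In unirradiated mice, where 5.07% of assays were called higher and 7.09% lower, miR-375 rose (0.96) and miR-429 fell (-2.54). For miR-429, mouse 11 was at -0.93, against 1.95 and 1.68 in the other unirradiated flaxseed mice. The endothelial miR-126# averaged -0.27 but stood at 0.97 in irradiated and -1.50 in unirradiated mice, neither called, and its interaction of 2.47 was called (limma adjusted p = 0.0432). The log2 of the summed level was 3.77 to 5.15 in flaxseed mice and 4.95 to 7.78 in control mice for the blood-forming list, 7.50 to 7.76 and 7.29 to 7.68 for the epithelial list, 2.77 to 4.20 and 2.87 to 4.37 for striated muscle, and 5.48 to 7.44 and 5.45 to 6.12 for miR-223. It was 7.03 to 9.60 in flaxseed mice and 7.11 to 8.12 in control mice for the lymphocyte activation list, 5.41 to 8.80 and 6.38 to 8.06 for the endothelial assay, 7.52 to 8.27 and 7.36 to 7.74 for smooth muscle, and 4.35 to 5.19 and 4.09 to 4.67 for fibroblasts. The part of these cell types in the difference of miR-150 was not tested.

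The assays most like each member across the 12 mice were found among the 260 assays detected in all of them, as a description in which mice share diet and radiation. For miR-150 they were miR-1198 (Pearson r = 0.95), miR-1839-3P (0.92) and miR-130b (0.88). For miR-342-3p they were miR-130b (0.94), miR-1198 (0.91) and miR-652 (0.91), so that 2 of the 3 recur. For miR-181a they were miR-148b (0.80), miR-139-5p (0.79) and miR-497 (0.78), and for miR-181c miR-127 (0.78), miR-126# (0.77) and miR-93 (0.75). The correlation between members was 0.85 for miR-150 with miR-342-3p, 0.52 for miR-181a with miR-181c and -0.30 for miR-150 with miR-181a. Taken as deviations from the 4 group means, these were 0.66, 0.43 and -0.31, and miR-1198 stayed among the 3 nearest to miR-150 (0.91), with miR-99b (0.94) and miR-185 (0.92).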

How the data were processed

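Lung RNA from 12 mice was profiled on TaqMan OpenArray plates. Reverse transcription started from 100 ng of RNA in 2 Megaplex pools, A and B, and 12 cycles of pre-amplification followed, per the labels' protocols. The authors deposited the relative threshold cycle (Crt) of each reaction, on a log2 scale where a lower value means more template, and a second table of normalized values on the same log2 scale with nearly equal distributions in all mice. The sources used here do not say how Crt was called or how values were normalized.

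Only the normalized table names assays, so names were carried to the Crt table by matching each assay's rank within every mouse. This matched 322 of 326 assays with a Crt, and the other 4 were left out. The order of both tables is therefore no separate check of a name. Reactions at a Crt of 28 or above were taken as undetected and missing. Each mouse's mean Crt over 260 microRNA assays was subtracted and the sign turned. Assays with a Crt in 2 or more mice of every group, 296 in number, entered a limma fit (version 3.58.1, R 4.3.3) of 4 group means, with p values adjusted by Benjamini and Hochberg over all 296 and called under 0.05. PCR gives no read depth, so the number of mice and the Crt limit set the precision. Mice are separate animals, 3 a group.

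Named microRNAs are the members, opposite arms of their hairpins, lists of blood cell microRNAs and, per member, the 3 most correlated assays. Members and lists were chosen with earlier results of these data known. Pairs of members were compared in the same mouse by exact permutation. Alternatives covered scaling, detection limits, filters, the variance model and leaving out mice.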

Additional observations from a re-analysis of the deposited data

Results flagged for a closer look

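Over the members, the other blood cell microRNAs and miR-213, 28 diet groups of 6 mice were examined. Of these, 7 held a mouse whose distance from the nearest other mouse was large against the group's range. In members these were miR-181c in mouse 17 (level 2.29 among flaxseed mice, next highest -1.25) and miR-181a in mouse 4 (2.25 among control mice, next lowest 3.01). In the other blood cell microRNAs they were miR-155 in mouse 13 (9.33, next -0.0023), miR-142-3p in mouse 11 (5.14, next 4.11) among flaxseed mice, and miR-142-3p in mouse 5 (7.78, next 5.86), miR-146a in mouse 4 (7.72, next 7.20) and miR-223 by assay 002295A in mouse 4 (4.24, next 3.93) among control mice. Mouse 4 thus accounts for 3 of the 7. The rule's rate of about 1 in 20 holds for 6 draws from 1 normal distribution. Each diet group here joins both radiation states, and the groups share mice, so no excess over chance can be read from the 7. The share over all assays was not computed.

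For miR-342-3p every irradiated flaxseed mouse lay below the mean of unirradiated flaxseed mice, while every irradiated control mouse lay above the mean of unirradiated control mice. The interaction was -1.14, with a limma adjusted p of 0.0557, so the difference between the diets was tested and not called. For miR-181c every irradiated flaxseed mouse lay above the mean of irradiated control mice. Every unirradiated flaxseed mouse lay below the mean of unirradiated control mice. In irradiated mice the diet groups still overlapped, with mouse 18 at -1.67 against a control mean of -1.78. Against unirradiated mice of the same diet, every irradiated flaxseed mouse lay above the mean and every irradiated control mouse below it. The share of all assays that meet this rule was not computed. The miR-181c interaction of 3.44 (limma adjusted p = 0.0788) was not called with all mice and was called without mouse 17 (2.18).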

How the results depend on the processing

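The fall of miR-150 with flaxseed averaged over radiation states was called by limma in every alternative over all mice or without 1 mouse, at -1.50 to -1.18 in the fits without 1 mouse, and not within the 6 mice without 4th decimals (-0.91). The miR-342-3p average was not called with quantile normalization (-0.53), scaling within primer pools (-0.50), scaling to the median assay (-0.47), no normalization (-0.86), the authors' normalized values (-0.42), no Crt limit (-0.55), or within the mice with and without 4th decimals (-0.93 and -0.22), and lay at -0.69 to -0.50 without 1 mouse. No paired analysis was possible because the mouse numbers are unique to each animal. The number of mice and the Crt limit bound what could be detected, and the causes of these shifts were not tested.

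In irradiated mice, miR-150 was not called without normalization (-1.65), and miR-342-3p was not with control RNA scaling (-1.23) or no normalization (-1.09). In unirradiated mice miR-150 was called with control RNA scaling (-1.33), no normalization (-1.57), the authors' values (-1.04), a Crt limit of 26 (-1.01), an adjusted p under 0.10 (-0.96) and without mice 2 and 11 (-1.46). miR-342-3p turned positive there with quantile normalization (0.12), pool scaling (0.17), median scaling (0.23), the authors' values (0.11) and no Crt limit (0.060). miR-181c there passed with the compared groups alone (-1.87). Ranges without 1 mouse were -1.79 to -1.64 and -1.24 to -1.05 for miR-150 and miR-342-3p in irradiated mice, and -1.29 to -0.66, -0.24 to 0.16 and -2.12 to -1.72 for miR-150, miR-342-3p and miR-181c in unirradiated mice.

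The miR-181a average turned negative with quantile normalization (-0.054), control RNA scaling (-0.23), no normalization (-0.28), the authors' values (-0.035), a Crt limit of 26 (-0.026), array weights (-0.15), without mice 2 and 11 (-0.016) and in mice without 4th decimals (-0.46). Without 1 mouse it was -0.18 to 0.11, with -0.0046 to 0.40 in irradiated and -0.57 to 0.0083 in unirradiated mice, where median scaling gave 0.028. The miR-181c average was 0.38 in mice with 4th decimals and -0.78 to 0.21 without 1 mouse. miR-146a turned negative with quantile normalization (-0.25), control RNA scaling (-0.19), no normalization (-0.24), the authors' values (-0.14) and without mice 2 and 11 (-0.078), and was -0.052 to 0.16 without 1 mouse. miR-213 was not called with median scaling (-0.56) or no normalization (-0.95).

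For radiation on flaxseed diet, miR-342-3p was not called with control RNA scaling (-0.73), no normalization (-0.055), the compared groups alone (-0.92) or without mice 2 and 11 (-0.69), and lay at -1.09 to -0.69 without 1 mouse. No normalization gave 0.075 for miR-150, and called miR-181a (1.55) and miR-181c (3.13). An adjusted p under 0.10 called miR-150 (-0.80) and miR-181c (2.26), and miR-150 lay at -0.90 to -0.63 without 1 mouse. For radiation on control diet, miR-150 turned positive with quantile normalization (0.21), pool scaling (0.042), median scaling (0.12), no normalization (0.15) and the authors' values (0.24), and lay at -0.38 to 0.24 without 1 mouse, as miR-181a did at -0.11 to 0.47. Averaged over diets, no normalization gave 0.11 for miR-150 and 0.18 for miR-342-3p, and miR-181c was -0.088 to 0.90 without 1 mouse.

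For irradiated flaxseed against unirradiated control mice, miR-150 was not called with quantile normalization (-1.77), control RNA scaling (-1.93), pool scaling (-1.68), median scaling (-1.60), no normalization (-1.50), the compared groups alone or without the unirradiated flaxseed mice (-1.76 in both), and lay at -2.08 to -1.46 without 1 mouse. miR-342-3p was called there with array weights (-0.91) and without mice 2 and 11 (-1.03). miR-181c was -0.16 with array weights and -0.87 to 1.12 without 1 mouse. The interaction was called for miR-342-3p with median scaling (-1.40), a Crt limit of 26 (-1.10) and an adjusted p under 0.10 (-1.14), and for miR-181c with no normalization (4.10) and an adjusted p under 0.10 (3.44), with 2.18 to 4.17 without 1 mouse. The miR-150 minus miR-181a difference was -1.49 to -1.04, and miR-342-3p minus miR-181c -0.82 to 0.42, without 1 mouse.

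Counts of called assays moved more. The 31 for flaxseed averaged over radiation states became 16 with quantile or no normalization, 14 with control RNA scaling, 48 at an adjusted p under 0.10 and 6 to 49 without 1 mouse. The 15 in irradiated mice became 4 with control RNA scaling, 1 with no normalization, 48 with the compared groups alone, 66 with array weights, 32 without mice 2 and 11, 26 without the unirradiated flaxseed mice and 2 to 25 without 1 mouse. The 36 in unirradiated mice became 60 with median scaling, 9 with the compared groups alone, 16 with array weights, 57 at an adjusted p under 0.10 and 20 to 41 without 1 mouse. The 43 for radiation on flaxseed became 20 with control RNA scaling, 65 with no Crt limit, 0 with the compared groups alone, 78 at an adjusted p under 0.10 and 9 to 49 without 1 mouse. For radiation on control diet the count was 0 to 2 without 1 mouse. Averaged over diets it was 1 with quantile normalization or a Crt limit of 26, 19 with no normalization, 2 with the authors' values, an adjusted p under 0.10 or without mice 2 and 11, and 0 to 2 without 1 mouse. The 1 for irradiated flaxseed against unirradiated control mice became 0 with quantile, control RNA, pool, median or no scaling, the compared groups alone or without the unirradiated flaxseed mice, 4 with assays detected in all 12 mice or an adjusted p under 0.10, 8 with array weights, 13 without mice 2 and 11 and 0 to 3 without 1 mouse. The 25 for the interaction became 16 with quantile normalization or no Crt limit, 0 with control RNA scaling, 7 with the authors' values, 14 with assays detected in all 12 mice, 9 with undetected values set to 28, 60 at an adjusted p under 0.10 and 0 to 31 without 1 mouse.

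Among assays called for flaxseed averaged over radiation states, 58.1% were higher, against 14.3% with control RNA scaling, 6.25% with no normalization, 25% with quantile normalization, 71% with median scaling and 42.9% with the authors' values. The median over all assays was 0.047, -0.18 with control RNA scaling, -0.23 with no normalization and 0.16 with median scaling. Mice 2 and 11, which were left out together, are those through which the miR-150 diet groups overlapped in unirradiated mice. The split of mice by the 4th decimal was chosen after seeing the data. Within each part of that split diet and radiation change together, so its values are not averages over radiation states.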
